A study of Mus musculus with 12 samples.

Results

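Gene expression under dexamethasone (Dex) was compared between mouse embryonic fibroblasts (MEFs) of the GR-C3 knockin and wild-type (WT) MEFs. The comparison used the 3 arrays of GR-C3 knockin cells and the 3 arrays of WT cells that had received 100 nM Dex for 6 hours, which are 6 of the 12 one-colour Agilent arrays of the study. The other arrays are of cells of both genotypes given vehicle for 6 hours, 3 per genotype. All cells are of C57Bl/6 background and were derived from embryos at embryonic day 12.5. In the homozygous knockin the start codons of the glucocorticoid receptor (GR) gene Nr3c1 in exon 2 were mutated except that of the GR-C3 isoform. The mice descend from a targeted embryonic stem cell clone whose selection cassette was removed with a Flp deleter strain. The labels name the samples of a group biological replicates without saying whether they came from separate embryos, litters or cultures. All p-values therefore measure only the spread between these samples, which may be technical, and the 3 arrays per group limit the precision.

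The GR is a hormone-bound transcription factor. It switches on genes through glucocorticoid response elements and lowers the transcription of many cytokine genes that NF-kappaB and AP-1 drive. Its messenger RNA is read from several start codons, which gives protein isoforms that share the DNA-binding and hormone-binding domains and differ in the length of the amino-terminal activation region. Dex is a synthetic glucocorticoid, and fibroblasts carry the receptor and respond to it. The comparison asks how cells that can make only GR-C3 differ from WT cells once both have received the hormone.

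Levels are log2 processed signals minus the 75th percentile of the same array, so that 0 is the 75th percentile of its non-control probes. Differences are GR-C3 Dex minus WT Dex on this log2 scale, given as value ± standard error from limma, and a gene was called at a Benjamini-Hochberg adjusted p under 0.05. The 75th percentile of the signal spanned 884 to 1821 over the 12 arrays, and the scanner software called 71.3 to 79.0% of non-control spots on an array well above background. Dex arrays correlated across genes at 0.992 to 0.995 within WT, at 0.990 to 0.996 within GR-C3 and at 0.977 to 0.981 between the genotypes. The array labelled WT vehicle replicate 1 stands apart from its group and entered no comparison below unless that is said. It alone lay on slide 1 and was scanned on a different day from the other 11 arrays. WT Dex replicate 1 shared slide 2 with vehicle arrays of WT, WT Dex replicates 2 and 3 shared slide 3 with vehicle arrays of GR-C3, and the GR-C3 Dex arrays lay on slide 4. No slide therefore held Dex arrays of both genotypes, and a value within a slide could not be had. The part of the slide in these results was tested only through the vehicle arrays, with slide as a fixed block over 11 arrays.

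Nr3c1 itself did not pass the test. Its level was 1.26, 1.06 and 1.07 on the WT Dex arrays and 1.53, 1.44 and 1.39 on the GR-C3 Dex arrays. The difference was 0.32 ± 0.11 (limma adjusted p = 0.060), the other 3 probes of the gene gave -0.02 to 0.24, and without WT Dex replicate 1 it passed at 0.39 (limma adjusted p = 0.037). The probe lies on chromosome 18 at 39787242 to 39787301 (build mm7). The knockin changes start codons, and where these probes lie relative to them was not determined. The probes therefore do not check the genotype labels.

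Of 19403 autosomal genes tested, 6748 (34.8%) differed between the genotypes under Dex, 4190 (21.6%) higher and 2558 (13.2%) lower in GR-C3. A called difference of at least 2-fold was found for 1429 genes (7.36%), 648 higher and 781 lower. The arrays of the groups did not overlap for 9948 genes (51.3%), 6710 of them called. The share of calls that were higher was 62.1%, against 52.9% after quantile normalization, 53.6% with normexp and repaired local backgrounds, and 49.2% with slide as a block. With the slide block 3167 genes were called, 1557 higher and 1610 lower, and 1399 at least 2-fold. The number of calls fell to 4218 without WT Dex replicate 3, to 4305 without GR-C3 Dex replicate 2 and to 3815 without GR-C3 Dex replicate 3. The counts of the lists below are to be read against these shares, 34.8% called, 21.6% higher and 13.2% lower. The median of all autosomal genes was 0.13, which is the level to read the list medians against. With normexp on the unrepaired local backgrounds, which reached 65361 on WT Dex replicate 3, this median moved to -0.36 and 0 genes were called by limma, 2057 at an unadjusted p under 0.05. The share of genes called ranged from 31.4% on chromosome 17 to 39.8% on chromosome 3.

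Genes known to be induced by glucocorticoids were mostly lower in GR-C3 than in WT cells under Dex. Of 45 such genes listed, 42 passed the filter on low signal, 30 were called lower and 2 higher, and their median was -0.63. To pass, a probe had to be well above background throughout WT Dex or throughout GR-C3 Dex, so a gene can enter through the group in which it is high. Under vehicle the median of these genes was 0.07, though 8 were called higher and 11 lower there. With normexp on unrepaired local backgrounds their median under Dex was -0.51, against -0.36 for all autosomal genes.

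Slc45a3, a solute carrier gene, showed the largest difference of this list. It lay at 0.96, 1.49 and 1.38 on the WT Dex arrays and at -2.44, -2.49 and -2.31 on the GR-C3 Dex arrays (probe at chromosome 1, 131877630 to 131877689, build mm7). All WT arrays were above all GR-C3 arrays, and the difference was -3.69 ± 0.16, which is 12.9-fold (limma adjusted p = 1.1e-05). The vehicle groups differed by -0.06, so that Dex raised Slc45a3 by 5.38 in WT and by 1.75 in GR-C3 cells. Rgcc, a regulator of the cell cycle, lay at 4.02, 4.17 and 3.81 in WT and at 1.69, 1.58 and 1.57 in GR-C3 under Dex. The groups were again apart, by -2.38 ± 0.13, against -0.15 under vehicle. Fam107a, a stress-induced actin-binding protein, lay at 0.21, 0.55 and 0.46 in WT and at -2.22, -2.02 and -2.01 in GR-C3, a difference of -2.49 ± 0.13 with no overlap. It was also lower in GR-C3 under vehicle, by 0.89 ± 0.14 on the log2 scale (limma adjusted p = 0.0016), and Dex raised it by 4.74 in WT and by 3.14 in GR-C3 cells.

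Sult1a1 and Mertk were lower by more than 2-fold already without hormone. Sult1a1, a phenol sulfotransferase, lay at 1.35, 1.58 and 1.57 in WT and at -1.02, -1.03 and -0.93 in GR-C3 under Dex, a difference of -2.49 ± 0.11. Its vehicle difference was -2.03, and Dex raised it by 4.10 in WT and by 3.64 in GR-C3 cells. Mertk, a receptor tyrosine kinase for the uptake of apoptotic cells, lay at 0.26, 0.39 and 0.65 in WT and at -1.94, -2.0 and -1.85 in GR-C3 (-2.36 ± 0.13, against -1.28 under vehicle). Both genes were therefore apart between the genotypes with and without Dex.

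**Figure D1:**
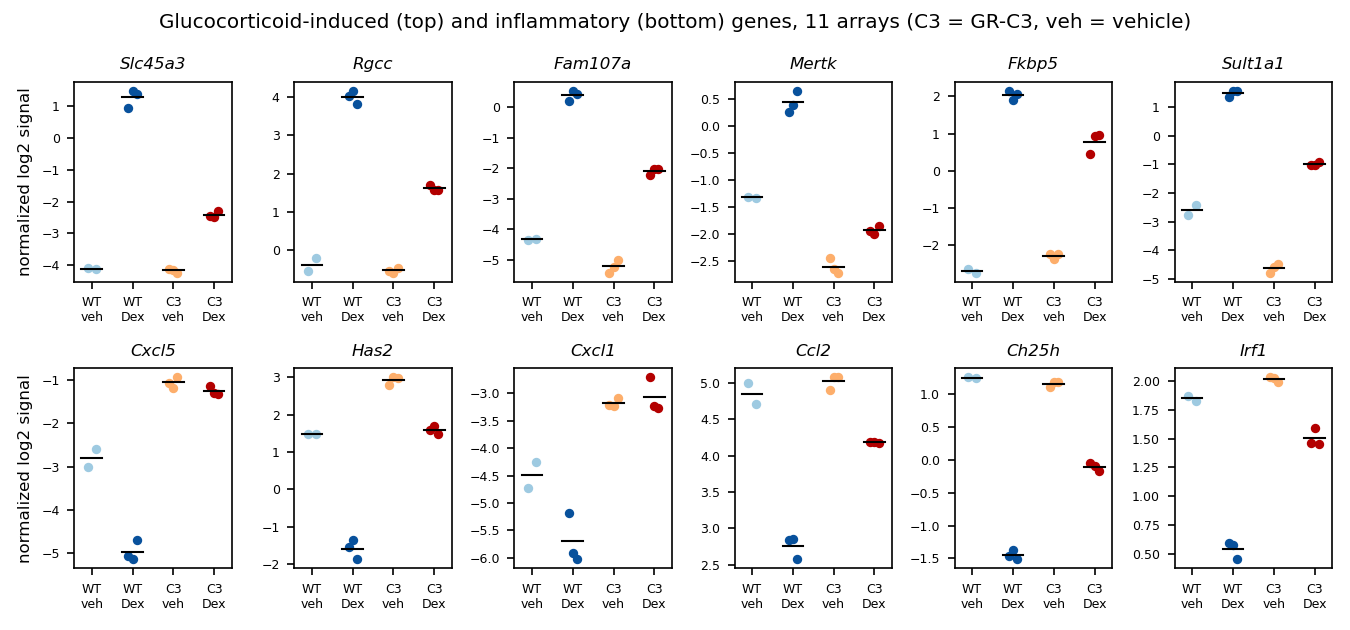
Normalized log2 signal (75th percentile of the array = 0) of 6 glucocorticoid-induced genes (top) and 6 inflammatory or interferon-related genes (bottom), 1 point per array in 4 groups (11 arrays, without WT vehicle replicate 1) with the group mean as a line. Slc45a3 reached 0.96 to 1.49 in WT Dex and -2.49 to -2.31 in GR-C3 Dex from like vehicle levels, and Ch25h lay at -1.51 to -1.37 in WT Dex against -0.18 to -0.04 in GR-C3 Dex.

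Fkbp5, a GR co-chaperone that reduces the receptor's affinity for hormone, lay at 2.15, 1.89 and 2.06 in WT and at 0.46, 0.94 and 0.96 in GR-C3 under Dex. The WT arrays were all higher, by 1.25 ± 0.16 on the log2 scale or 2.38-fold (limma adjusted p = 0.0014), and the other 2 probes of the gene gave -1.02 and -0.96. Other called members, chosen after their values were seen, serve metabolism and feedback. The transcription factors Klf15 (-2.53) and Cebpd (-1.80), the pyruvate dehydrogenase kinase Pdk4 (-2.24), the Ras-like protein Rasd1 (-1.69) and glutamine synthetase, Glul (-1.27), were lower. So were the MAP kinase phosphatase Dusp1 (-1.07), the EGF receptor inhibitor Errfi1 (-0.59) and the NF-kappaB inhibitor Nfkbia (-0.68).

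Among the best known targets, Sgk1 and Per1 differed by less than the median of the list. Sgk1, a kinase of ion transport and survival, lay at 5.50, 5.36 and 5.43 in WT and at 5.2, 5.03 and 5.01 in GR-C3, a difference of -0.35 ± 0.11 (limma adjusted p = 0.043). Its vehicle difference went the other way, at 0.94. The clock gene Per1 was not called (0.02 ± 0.13), and Dex raised it by 2.14 in WT and by 1.92 in GR-C3 cells. The metallothionein gene Mt1, a metal-binding protein gene, lay at 5.57, 6.24 and 6.29 in WT and at 5.16, 5.07 and 4.97 in GR-C3, with a difference of -0.96 ± 0.20 and a vehicle difference of 0.69. The 2 members that were higher in GR-C3 were Crispld2, a secreted protein gene, at 1.96 against 3.40 under vehicle, and Angptl4, an inhibitor of lipoprotein lipase, at 1.31 on 2 of 3 GR-C3 arrays with a value. The 30 lower calls became 22 with slide as a block, 13 in the fit of all 12 arrays and 21 to 29 when 1 Dex array was left out.

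The promoters of 3 of these genes are shown because each holds a match to the palindromic glucocorticoid response element GNACANNNTGTNC, searched on both strands in RefSeq promoters from 250 bases before to 50 after the gene start (GRCm38.p6). The fourth is the promoter of Cxcl1, described below, with its matches to the NF-kappaB motif GGGNNTTTCC. The 250 bases before the start are printed 5′ to 3′ on the strand of the gene, with the matches in capitals.
Fam107a, chr14:8309780-8310029, minus strand: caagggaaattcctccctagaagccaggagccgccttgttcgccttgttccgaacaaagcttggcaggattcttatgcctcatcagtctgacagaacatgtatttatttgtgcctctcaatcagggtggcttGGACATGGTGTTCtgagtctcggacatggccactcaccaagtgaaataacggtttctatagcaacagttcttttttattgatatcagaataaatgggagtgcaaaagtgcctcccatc
Sgk1, chr10:21993640-21993889, plus strand: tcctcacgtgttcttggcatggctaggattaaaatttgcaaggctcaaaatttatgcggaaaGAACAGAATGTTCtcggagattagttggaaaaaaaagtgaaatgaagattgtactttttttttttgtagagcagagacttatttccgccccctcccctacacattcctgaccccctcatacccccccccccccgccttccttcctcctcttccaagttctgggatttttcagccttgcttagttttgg
Mt1, chr8:94178839-94179088, plus strand: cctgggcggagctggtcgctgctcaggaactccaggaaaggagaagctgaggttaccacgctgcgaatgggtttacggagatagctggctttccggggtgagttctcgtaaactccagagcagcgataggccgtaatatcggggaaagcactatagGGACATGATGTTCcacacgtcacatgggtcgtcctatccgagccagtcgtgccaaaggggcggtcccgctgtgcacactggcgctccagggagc
Cxcl1, chr5:90890995-90891244, plus strand: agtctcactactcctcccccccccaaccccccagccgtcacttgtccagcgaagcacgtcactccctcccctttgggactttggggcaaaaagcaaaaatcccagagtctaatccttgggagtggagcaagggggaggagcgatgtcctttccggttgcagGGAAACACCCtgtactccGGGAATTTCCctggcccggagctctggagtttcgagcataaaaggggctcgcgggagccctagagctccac
Counted from the gene start, the match begins at -118 in Fam107a, -188 in Sgk1 and -94 in Mt1, and the first of the 2 kappaB matches begins at -89 in Cxcl1. The response element was found in 145 of 27025 genes of the promoter table (0.537%) and in 3 of 36 glucocorticoid-induced genes with a promoter there (8.33%). Of 12599 tested autosomal genes with a promoter there, 60 held it (0.476%). Among 94 such genes lower in GR-C3 under Dex with a called interaction below 0, it was found in 5 (5.32%). These 5 are Fam107a, Map3k6, Mt1, Serpina3c and Sgk1. The kappaB motif was found in 1.89% of the table and in 5 of 18 inflammatory genes with a promoter there (27.8%), Ccl20, Csf1, Cxcl1, Il6 and Tnfaip3. It was also found in 1 of the 36 glucocorticoid-induced genes, Nfkbia. Among the 94 genes it was found in 0. Of the genes higher in GR-C3 under Dex with a called interaction above 0, 29 had a promoter there, and both motifs were found in 0. Both motifs were chosen after the expression values were seen, and a match is a description of letters and not of a bound site.

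Whether the genotype difference under Dex departed from that under vehicle was tested as an interaction over 11 arrays, which share the Dex arrays with the comparison above. It was called for 234 of 20200 autosomal genes (1.16%), 68 above and 166 below 0. Among the genes below 0, 132 were called lower in GR-C3 under Dex and 156 rose with Dex in WT cells. Among the 64 above 0 that the Dex comparison also tested, 47 were called higher in GR-C3 under Dex and 55 fell with Dex in WT cells. Of all autosomal genes, 13.2% were called lower and 21.6% higher under Dex. The WT Dex change and the genotype difference under Dex both enter the interaction. These counts are therefore largely built in and are no separate result. With all 12 arrays limma called 0 genes (1214 at an unadjusted p under 0.05), and with slide as a block it called 37. The number was 64 without WT vehicle replicate 2, 57 without WT vehicle replicate 3, 99 and 105 without GR-C3 vehicle replicates 1 and 2, 91 and 111 without GR-C3 Dex replicates 2 and 3, and 1130 without WT Dex replicate 1.

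The glucocorticoid-induced genes had a median interaction of -0.72, with 15 of 42 called below 0 and none above. Their median Dex change was 1.40 in WT and 0.66 in GR-C3 cells. The interaction was -3.64 for Slc45a3 (limma adjusted p = 7.6e-05), -2.23 for Rgcc (0.00065), -1.60 for Fam107a (0.0061), -1.09 for Mertk (0.020) and -1.65 for Fkbp5 (0.0069). For Sult1a1 it was -0.46 (0.28) and did not pass. The calls for Mertk and Fkbp5 were lost with slide as a block, that for Fkbp5 also without WT vehicle replicate 3, and that for Mertk without WT vehicle replicate 2 or 3, GR-C3 vehicle replicate 1 or 2, or GR-C3 Dex replicate 2.

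Genes outside the list also had interactions below 0. Ramp2, an accessory protein of the calcitonin receptor-like receptor for adrenomedullin, lay at 1.18, 1.35 and 1.13 in WT and at -1.48, -1.65 and -1.54 in GR-C3 under Dex. The groups were apart by -2.78 ± 0.11, with -0.35 under vehicle, and Dex raised it by 2.68 in WT, with a change of 0.25 in GR-C3 cells. Tcim, a small regulator of Wnt signalling, lay at 1.01, 1.05 and 0.75 in WT and at -0.40, -0.29 and -0.34 in GR-C3. It was lower in GR-C3 by 1.28 ± 0.12 under Dex and higher by 1.34 under vehicle, and the interaction was -2.62 (limma adjusted p = 7.6e-05). Nat3, an arylamine acetyltransferase, did not reach that scanner call on any GR-C3 Dex array. Its level on the WT Dex arrays, -3.47 to -3.35, was at least 8.12-fold higher. Here the bound sets the WT mean against, per GR-C3 array, whichever is higher of the probe's signal there and the dimmest signal with that scanner call.

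Inflammatory genes were mostly higher in GR-C3 than in WT cells under Dex. Of 33 listed, 25 passed the filter, 17 were called higher and 2 lower, and the median was 0.68, or 0.67 with Ccl11 at its bound. Under vehicle the median was 0.39, and 12 were already called higher there and 2 lower. With slide as a block 12 inflammatory genes were called higher under Dex and 2 lower. Cxcl5, a neutrophil chemokine, lay at -5.08, -5.15 and -4.70 in WT and at -1.14, -1.30 and -1.32 in GR-C3 (probe at chromosome 5, 90732453 to 90732512, build mm7). The groups did not overlap, and the difference was 3.72 ± 0.15 or 13.2-fold (limma adjusted p = 8.3e-06), against 1.76 under vehicle.

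Has2, the main synthase of hyaluronan, lay at -1.53, -1.35 and -1.86 in WT and at 1.58, 1.70 and 1.48 in GR-C3, a difference of 3.17 ± 0.15. Dex lowered Has2 by 3.06 in WT and by 1.34 in GR-C3 cells. Cxcl1, a chemokine of the same receptor as Cxcl5, lay at -5.18, -5.90 and -6.02 in WT and at -2.71, -3.24 and -3.27 in GR-C3, a difference of 2.63 ± 0.25 with no overlap of the groups. Under vehicle Cxcl1 was already higher in GR-C3, by 1.30 (limma adjusted p = 0.0057). Its value under Dex was -0.28 with normexp on unrepaired backgrounds.

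Ccl2 and Ch25h differed only slightly before Dex. Ccl2, the monocyte chemokine, lay at 2.84, 2.85 and 2.58 in WT and at 4.19, 4.19 and 4.18 in GR-C3 under Dex, a difference of 1.43 ± 0.12 against 0.17 under vehicle. Ch25h, which makes 25-hydroxycholesterol, lay at -1.47, -1.37 and -1.51 in WT and at -0.04, -0.10 and -0.18 in GR-C3, a difference of 1.35 ± 0.11 against -0.09 under vehicle. Neither vehicle difference passed the test. Dex lowered Ch25h by 2.70 in WT and by 1.27 in GR-C3 cells, and lowered Ccl2 by 2.09 and 0.83. Irf1, the interferon regulatory factor, is counted below with the interferon-stimulated genes. It was 0.96 ± 0.11 higher in GR-C3 under Dex and 0.17 under vehicle, while of the 28 measured members of that list 9 were lower and 3 higher.

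The interaction was called above 0 for 4 of the 25 inflammatory genes and below 0 for 1. It was 1.96 for Cxcl5 (limma adjusted p = 0.0044), 1.72 for Has2 (0.0045), 1.26 for Ccl2 (0.0078), 1.43 for Ch25h (0.00065) and 1.33 for Cxcl1 (0.12, not called). With slide as a block the calls for Cxcl5, Has2 and Ccl2 were lost and that for Ch25h held, and the call for Ccl2 was also lost without WT vehicle replicate 2. The median Dex change of the list was -0.90 in WT and -0.33 in GR-C3 cells. The 2 members lower in GR-C3 were the adhesion molecule Icam1 (-1.06) and the cyclooxygenase Ptgs1 (-0.78), and both were lower under vehicle as well. Of 8 macrophage markers measured 0 were higher and 2 lower, a share of 25% called against 34.8% of all autosomal genes. The lower ones were the leukocyte phosphatase Ptprc (-1.04) and lysozyme, Lyz2 (-0.46). The call for Lyz2 was lost without GR-C3 Dex replicate 2 or 3, and that for Ptprc with slide as a block. The summed level of the 8 macrophage markers, the log2 of the sum of their signals, was 2.78 to 3.00 in WT Dex and 2.47 to 2.59 in GR-C3 Dex.

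The Hox genes, which give cells their position along the body and limb axes, were higher in GR-C3 cells. Of 39 listed, 35 passed the filter, 28 were called higher and 1 lower, and the median was 1.61. It was only -0.24 with normexp on unrepaired backgrounds, against -0.36 for all autosomal genes, and 0.96 with repaired ones. With Hoxb8 and Hoxd11 at their bounds the median was 1.57, and without WT Dex replicate 2 or GR-C3 Dex replicate 1 the lower calls were 2. Their summed level was 2.76 to 2.89 on the WT Dex arrays and 4.6 to 4.77 on the GR-C3 Dex arrays. In bulk RNA, more cells that express a gene and more RNA per cell cannot be told apart.

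Hoxd13, the most distal limb member of its cluster, had the largest increase of all fully measured genes. It lay at -4.73, -5.45 and -4.6 in WT and at 0.92, 0.73 and 0.60 in GR-C3 (probe at chromosome 2, 74514907 to 74514966, build mm7), and the groups were far apart. The difference was 5.68 ± 0.23 or 51.3-fold (limma adjusted p = 8.7e-06), and the other probe gave 4.87. Hoxd11 was at least 5.68-fold and Hoxb8 at least 2.98-fold higher, since neither was well above background on any WT Dex array. Hoxa10, a gene of the proximal limb and posterior trunk, lay at -2.22, -2.45 and -2.31 in WT and at 0.18, 0.09 and 0.18 in GR-C3 (2.48 ± 0.11). Hoxb6 lay at -2.11, -1.99 and -1.98 in WT and at 0.24, 0.26 and 0.32 in GR-C3 (2.30 ± 0.10), but its other probe gave 0.06.

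Of the 35 measured Hox genes, 1 was called lower and 6 did not pass. Hoxa2, which patterns the second pharyngeal arch, lay at -1.68, -1.94 and -1.62 in WT and at -3.74, -3.98 and -4.00 in GR-C3, and was the called member that was lower (-2.16 ± 0.14). Hoxa3, Hoxc4, Hoxc13, Hoxd3 and Hoxd12 were among those that did not pass, at -0.55 to 0.42. The genotype difference of the Hox genes was also there without hormone. Their vehicle median was 1.62, and with slide as a block 25 were called higher and 1 lower.

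**Figure D2:**
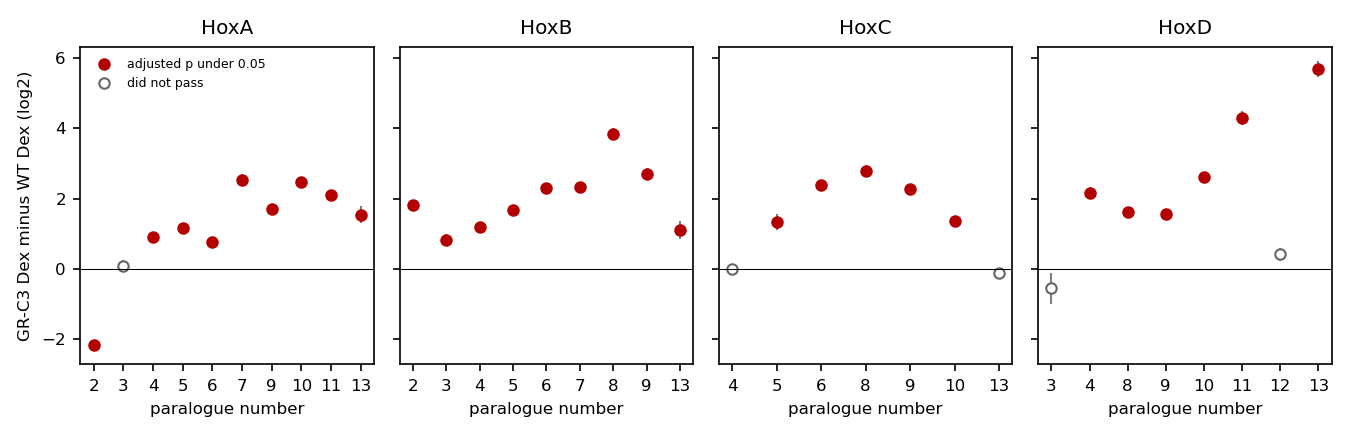
Log2 difference GR-C3 Dex minus WT Dex (vertical axis, bars are the standard error) of 34 of the 35 measured Hox genes by paralogue number, 1 panel per cluster, filled where the limma adjusted p was under 0.05. Hoxd13 lies highest at 5.68 and Hoxa2 lowest at -2.16. Hoxd11 and Hoxb8 are drawn at their fitted values although only bounds of 5.68-fold and 2.98-fold are measured. With normexp on unrepaired backgrounds the median of the genes was -0.24, against -0.36 for all autosomal genes.

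Factors that mark limb and trunk positions went both ways. Of 30 listed, 29 passed the filter, 9 were called higher and 10 lower (5 lower with slide as a block), and the median was 0.04. Pitx1, a hindlimb and jaw factor, lay at 0.85, 0.96 and 0.62 in WT and at 2.46, 2.44 and 2.40 in GR-C3 (1.63 ± 0.12). Tbx4, the hindlimb T-box factor, was well above background on no WT Dex array and at least 7.38-fold higher in GR-C3. Nkx3-2 (-2.23), which patterns the vertebrae and middle ear, Meis1 (-1.76), a partner of Hox proteins, and Pax9 (-1.20), a factor of vertebrae and teeth, were lower. Pitx1 was higher under vehicle too, by 1.65.

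Of 28 craniofacial factors listed, 25 passed the filter, 6 were called higher and 9 lower, and the median was -0.09. The homeobox gene Alx1, needed for the frontonasal skeleton, was 2.63 ± 0.11 higher, at -3.50 to -3.25 in WT and -0.80 to -0.75 in GR-C3. Alx4 was higher by 1.59 on the probe used, but its other probe gave -0.74. Barx1, a factor of jaw and tooth mesenchyme, lay at 1.02, 0.98 and 1.05 in WT and at -1.38, -1.26 and -1.08 in GR-C3 (-2.26 ± 0.12). Foxd1 (-1.86) and Dlx1 (-1.76) were lower as well. Without GR-C3 Dex replicate 2 the higher calls were 3, and they were 2 with slide as a block.

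Cartilage genes were lower in GR-C3 cells under Dex. Of 9 chondrocyte markers listed, 8 passed the filter and these 8 were called lower, with a median of -1.57 and of -1.54 under vehicle. Their summed level was 6.22 to 6.39 in WT Dex and 4.55 to 4.58 in GR-C3 Dex. Cnmd, chondromodulin, a cartilage glycoprotein that inhibits vessel growth, lay at 0.65, 0.58 and 0.79 in WT and was well above background on no GR-C3 Dex array. It was at least 138-fold lower in GR-C3.

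Col2a1, the main collagen of cartilage, lay at 5.41, 5.71 and 5.58 in WT and at 2.11, 2.19 and 2.05 in GR-C3, a difference of -3.45 ± 0.12. Its other 2 probes gave -4.37 and -0.09, so that the probes did not all show the difference. Col9a3, a chain of the fibril-associated collagen of cartilage, lay at 0.16, 0.41 and 0.24 in WT and at -4.01, -4.14 and -3.92 in GR-C3 (-4.29 ± 0.12 or 19.6-fold). Col9a1 (-2.52), the cartilage oligomeric protein Comp (-1.74), the cartilage transcription factor Sox9 (-1.39) and aggrecan, Acan (-0.87), were lower with it. The proteoglycan gene Epyc, epiphycan, was lower by 3.66 ± 0.22.

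Of 11 bone genes listed, 10 passed the filter, 2 were called higher and 4 lower, and the median was -0.18, or 0.03 without GR-C3 Dex replicate 1. The bone matrix genes Dmp1 (-2.23), Bglap, osteocalcin (-1.80), Omd, osteomodulin (-1.67) and Spp1, osteopontin (-0.71), were lower. Alpl, alkaline phosphatase, was higher by 0.77. The other higher member was Sp7 (0.39), the osteoblast transcription factor. With slide as a block both calls were lost and the median was -0.59, and the higher calls were 1 after leaving out WT Dex replicate 2 or 3 or any GR-C3 Dex array.

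**Figure D3:**
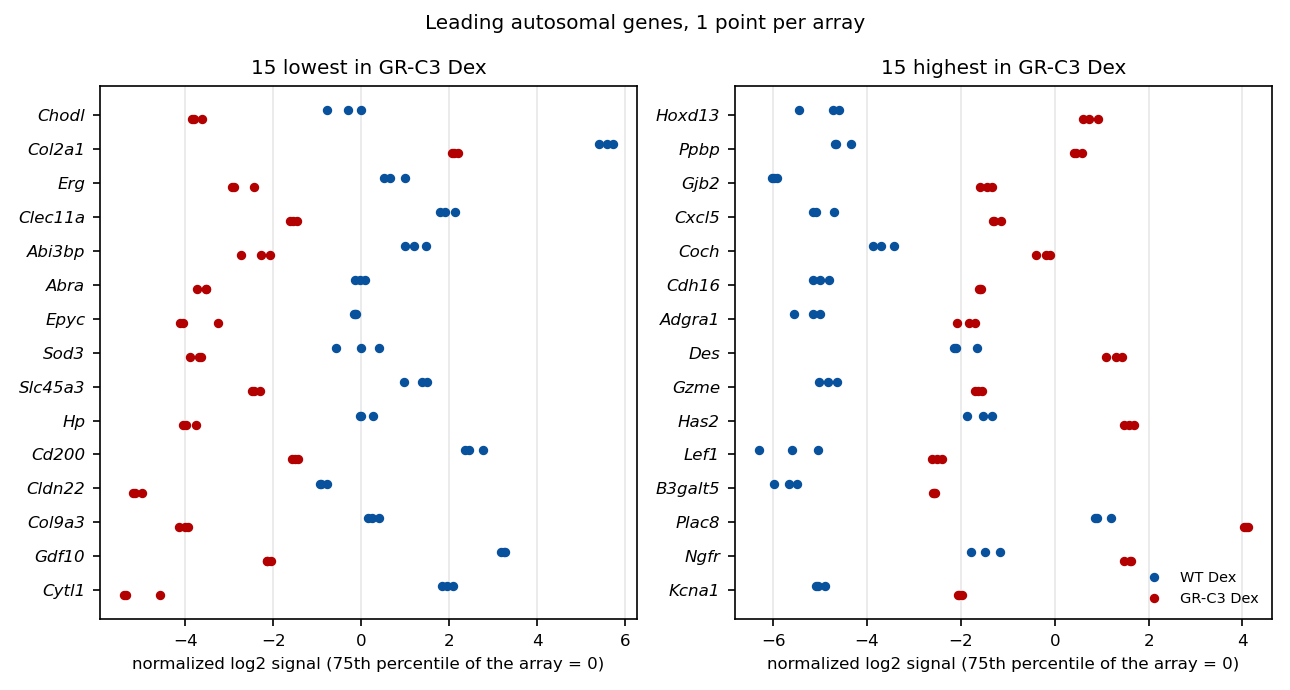
Normalized log2 signal (75th percentile of the array = 0) of the 15 lowest and 15 highest called genes well above background on all 6 arrays, 1 point per array. Cytl1 lies at 1.84 to 2.08 in WT Dex and at -5.38 to -4.58 in GR-C3 Dex, and Hoxd13 at -5.45 to -4.6 and at 0.60 to 0.92; the arrays of the groups do not overlap for any gene drawn, by the rule that chose them.

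The largest decrease among fully measured genes was that of Cytl1, a secreted protein gene expressed in cartilage. It lay at 1.95, 1.84 and 2.08 in WT and at -4.58, -5.38 and -5.34 in GR-C3 (probe at chromosome 5, 36820946 to 36821005, build mm7). The difference was -7.05 ± 0.22 or 133-fold, and that under vehicle was -5.91. Gdf10, a TGF-beta family ligand, lay at 3.17, 3.24 and 3.26 in WT and at -2.05, -2.13 and -2.14 in GR-C3 (-5.33 ± 0.10 or 40.2-fold). Cldn22, a tight junction claudin (-4.23), Cd200, an immune-regulating surface protein (-4.03), Hp, the haemoglobin-binding haptoglobin (-4.00), and Sod3, the extracellular superoxide dismutase (-3.68), followed. Abi3bp (-3.58), Abra (-3.58), the growth factor Clec11a (-3.48) and the ETS factor Erg (-3.48) were also lower, as was Chodl (-3.39), whose other probe gave -0.22.

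Bounds alone could be given for further genes. Ncmap, a myelin-associated protein gene, was at least 9.82-fold, Olfml1 at least 4.66-fold, Ptpn20 at least 2.53-fold and Mup1, of a family of near-identical copies, at least 1.77-fold lower. The gene ccdc198 was at least 9.0-fold, Myh3, the embryonic myosin, at least 5.97-fold and the arginase gene Arg1 at least 5.03-fold higher. With normexp on unrepaired backgrounds ccdc198, Myh3 and Arg1 turned below 0.

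Among the highest genes, Ppbp, the platelet basic chemokine, lay at -4.68, -4.35 and -4.66 in WT and at 0.45, 0.57 and 0.41 in GR-C3, apart by 5.04 ± 0.13 or 32.9-fold. Gjb2, connexin 26, was higher by 4.53 ± 0.11, and its other probe gave 1.30. Coch (3.43), the cadherin Cdh16 (3.40), the adhesion receptor Adgra1 (3.36), the granzyme Gzme (3.21), the glycosyltransferase B3galt5 (3.13), Plac8 (3.08) and the potassium channel Kcna1 (2.98) were higher too. Ppbp, Coch and Plac8 differed under vehicle by a like amount, at 4.83, 3.22 and 3.1.

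**Figure D4:**
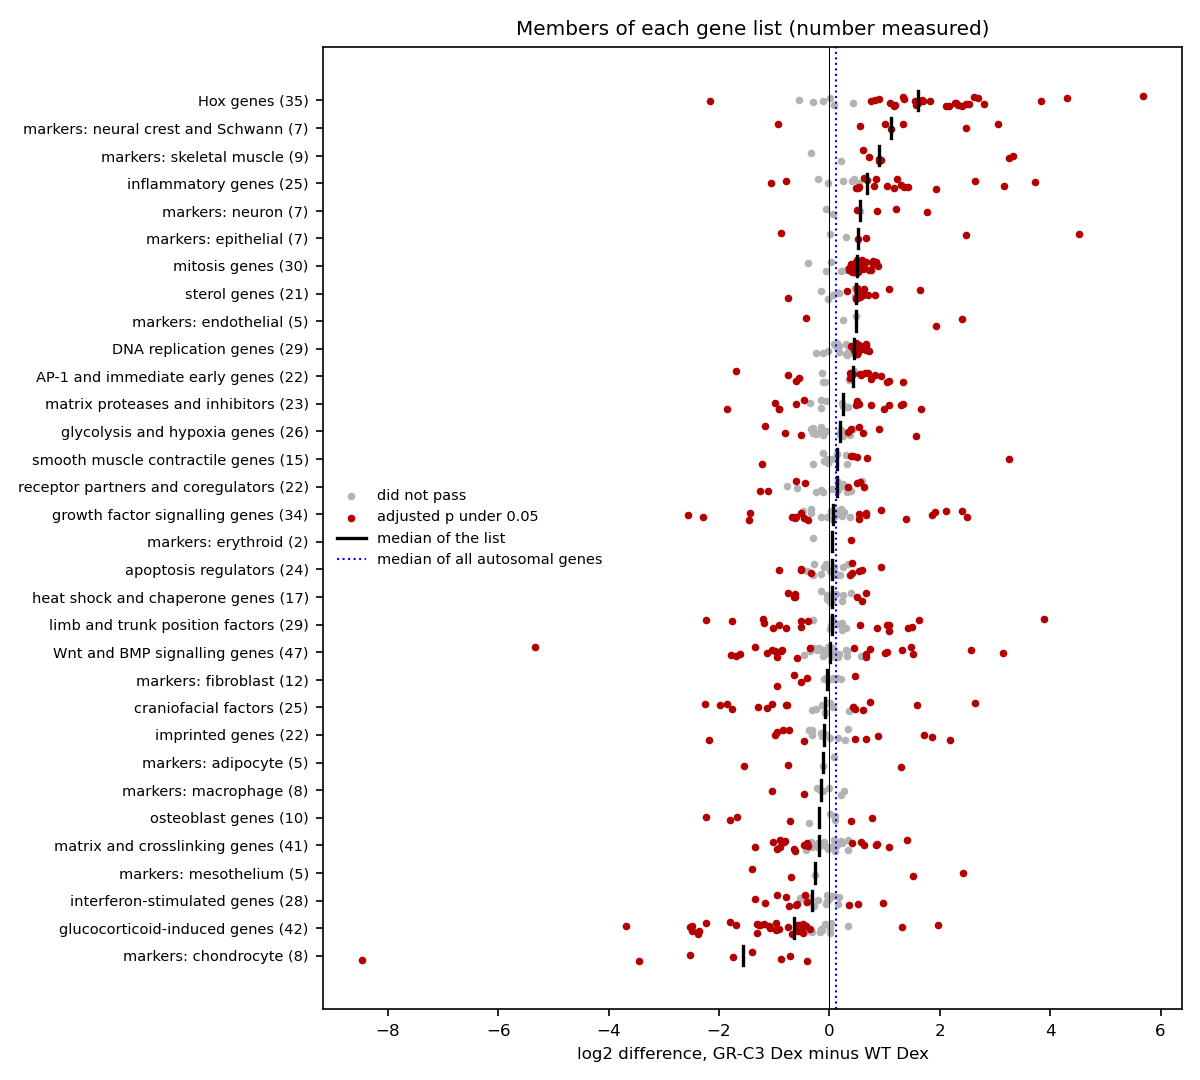
Log2 difference GR-C3 Dex minus WT Dex (horizontal axis) of each measured member of 32 gene lists, red where the limma adjusted p was under 0.05, with the median of each list (black bar) and of all autosomal genes (dotted line, 0.13). Hox genes (median 1.61) lie highest and chondrocyte markers (-1.57) lowest. With normexp on unrepaired backgrounds the medians of the Hox, neural crest, skeletal muscle, neuron, epithelial and endothelial lists, among others, were below 0. The median of all autosomal genes was then -0.36.

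Markers of fibroblasts, the labelled cell type, were at high levels in both groups, with a summed level of 9.70 to 10.00 in WT Dex and 9.77 to 9.86 in GR-C3 Dex. Of 12 markers 1 was called higher, the mesenchymal factor Twist1 (0.47), and 4 lower, decorin, Dcn (-0.96), Fn1, fibronectin (-0.64), Pdgfra (-0.51) and Col3a1 (-0.40). The median was -0.04 and the share called 41.7%, against 34.8% of all autosomal genes. Without GR-C3 Dex replicate 2, without GR-C3 Dex replicate 3 or without WT Dex replicate 3 the lower calls were 2 and the higher call was lost, as it was without WT Dex replicate 2.

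Markers of other cell types moved with the genotype as well. Of 9 skeletal muscle markers measured, 7 were higher and none lower, with a median of 0.89 (-0.46 with normexp on unrepaired backgrounds). Their summed level was 3.43 to 3.72 in WT Dex and 4.31 to 4.48 in GR-C3 Dex, and 1 marker was called lower without WT Dex replicate 1. Des, the muscle intermediate filament desmin, lay at -2.15, -1.66 and -2.10 in WT and at 1.10, 1.31 and 1.44 in GR-C3 (3.25 ± 0.17). The muscle determination factor Myod1 (0.71), the acetylcholine receptor subunit Chrna1 (0.90) and the fast myosin light chain Mylpf (0.93) were higher, and Myf5 did not pass the filter. The call for Myod1 was lost with slide as a block.

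Neural crest and Schwann cell markers were higher for 6 and lower for 1 of 7, with a median of 1.13 (-0.01 with normexp on unrepaired backgrounds) and a summed level of 1.67 to 2.04 in WT Dex against 2.56 to 2.58 in GR-C3 Dex. Ngfr, the low-affinity neurotrophin receptor, lay at -1.79, -1.16 and -1.48 in WT and at 1.49, 1.61 and 1.62 in GR-C3 (3.05 ± 0.17), but its other probe gave -0.09. The neuregulin receptor Erbb3 (2.48), the crest factors Foxd3 (1.34) and Sox10 (1.13) and the myelin gene Mbp (1.01, other probes -0.17 and 0.71) were higher, and S100b (-0.93) was lower. Neuron markers were higher for 4 of 7 and lower for none, with a median of 0.55 (-0.40 with normexp on unrepaired backgrounds), and their summed level was 2.26 to 2.44 against 2.84 to 2.89. The RNA-binding protein Elavl4 (1.77), the neurofilament Nefm (1.20) and the microtubule regulator Stmn2 (0.86) were among them.

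Epithelial markers were higher for 4 and lower for 1 of 7, with a summed level of -0.47 to -0.02 in WT Dex and 1.17 to 1.28 in GR-C3 Dex. Their median was 0.53, but -0.11 with slide as a block and -0.56 with normexp on unrepaired backgrounds. Krt18, a keratin of simple epithelia, was higher by 2.48 ± 0.14, at -2.14 to -1.73 in WT and 0.44 to 0.54 in GR-C3. Epcam and Cdh1, the defining surface proteins, did not pass the filter. Without WT Dex replicate 3 or GR-C3 Dex replicate 3 the higher epithelial calls were 2. The endothelial genes Kdr (2.40), a VEGF receptor, and Emcn (1.94) were higher and Flt1 (-0.43) lower, while the defining genes Pecam1, Cdh5 and Tie1 did not pass the filter. The call for Flt1 was lost with slide as a block and without WT Dex replicate 1 or any GR-C3 Dex array. The endothelial median was 0.48 (-0.37 with normexp on unrepaired backgrounds), and the summed level was 0.67 to 0.96 against 1.67 to 1.76.

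The mesothelial markers Krt19 (2.43) and Wt1 (1.51) were higher and Upk3b (-1.40) and Msln (-0.69) lower, with a median of -0.26. Of 5 adipocyte markers Lpl, lipoprotein lipase, was higher (1.30) and Fabp4 (-0.74) and Cebpa (-1.54) lower, with a median of -0.11. Of 2 erythroid genes measured, the globin gene Hba-a1 was called higher at 0.40, a call lost when any Dex array but WT Dex replicate 2 was left out. The part of other cell types in the genotype differences was not tested.

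Smooth muscle contractile genes were called higher for 5 and lower for 1 of 15, a share of 40% called against 34.8% of all autosomal genes, with a median of 0.14. The higher members besides Des were Actg2 (0.51), Myocd (0.68), Tpm2 (0.43) and Cnn1 (0.39), and the integrin gene Itga8 (-1.21) was lower. The higher calls were 2 without WT Dex replicate 1 or GR-C3 Dex replicate 1, and 1 without WT Dex replicate 3, GR-C3 Dex replicate 2 or GR-C3 Dex replicate 3.

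Growth factor genes went both ways, 11 of 34 higher and 10 lower, with a median of 0.07. The share called was 61.8%, against 34.8% of all autosomal genes. Igf2, insulin-like growth factor 2, lay at 2.48, 2.38 and 2.36 in WT and at 4.30, 4.30 and 4.18 in GR-C3 (1.85 ± 0.11). Its binding proteins split, Igfbp5 being higher by 2.50 ± 0.11 and Igfbp4 lower by 2.56 ± 0.13. Igfbp4 lay at 3.02, 3.00 and 3.18 in WT and at 0.30, 0.60 and 0.62 in GR-C3. Fgf18, a ligand that acts on cartilage and bone, was lower by 2.29 ± 0.13. Without GR-C3 Dex replicate 2 or without GR-C3 Dex replicate 3 the lower calls were 6.

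Fgf5 and Kdr were further from WT under Dex than under vehicle. Fgf5, a fibroblast growth factor, lay at -6.00, -6.16 and -6.31 in WT, where 2 of 3 arrays were well above background, and at -2.25, -2.04 and -2.03 in GR-C3. Its interaction was 1.35 (limma adjusted p = 0.0048), and that of Kdr was 1.10 (0.013), a call lost without WT vehicle replicate 2 or 3.

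Among Wnt and BMP genes 11 of 47 were higher and 13 lower, with a median of 0.02 (-0.07 after quantile normalization). The share called was 51.1%, against 34.8% of all autosomal genes (21.6% higher, 13.2% lower). Lef1, a transcription factor of Wnt signalling, lay at -5.05, -5.59 and -6.30 in WT and at -2.40, -2.51 and -2.61 in GR-C3 (3.14 ± 0.28). The Wnt antagonist Dkk2 (2.57) was higher, while the antagonist Sfrp1 (-1.79) and the ligand Gdf10 were lower. Of 25 imprinted genes listed, 22 passed the filter, 6 were higher and 6 lower (54.5% called), and the median was -0.10. Mest, a mesodermal hydrolase gene, lay at 4.89, 4.76 and 4.63 in WT and at 2.57, 2.68 and 2.49 in GR-C3 (-2.18 ± 0.12), and Nnat, neuronatin, was higher by 2.18 ± 0.13. Without GR-C3 Dex replicate 2 the lower imprinted calls were 3.

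Matrix and crosslinking genes were lower for 12 and higher for 7 of 41, with a median of -0.19 (0.13 with normexp on unrepaired backgrounds). The share called was 46.3%, against 34.8% of all autosomal genes (21.6% higher, 13.2% lower). Osteoglycin, Ogn (-1.35), decorin and nidogen, Nid2 (-0.80), were lower, and versican, Vcan (1.41), and the type VI collagen chain Col6a3 (0.86) higher. Of 23 matrix proteases and inhibitors 9 were higher and 6 lower (65.2% called). The stromelysin Mmp3 was lower by 1.85 ± 0.12, at 0.91 to 1.11 in WT and -1.02 to -0.76 in GR-C3. The gelatinase Mmp9 (1.67, with WT well above background on 2 of 3 arrays), the collagenase Mmp13 (1.31), the plasminogen activator Plat (1.08) and Mmp10 (0.99) were higher.

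Cell division genes were higher in GR-C3 cells by small amounts. Of 30 mitosis genes 24 were higher and none lower, with a median of 0.51 under Dex and 0.51 under vehicle. The centromere histone Cenpa lay at 0.51, 0.47 and 0.30 in WT and at 1.34, 1.24 and 1.31 in GR-C3 (0.87 ± 0.11). Aurka (0.78) and Plk1 (0.71), mitotic kinases, the motor protein Cenpe (0.80) and cyclin B1, Ccnb1 (0.75), were higher with it. Of 29 DNA replication genes 16 were higher and none lower, with a median of 0.45, among them the helicase subunit Mcm3 (0.71) and the polymerase subunit Pole2 (0.66). The mitosis calls fell to 11 without GR-C3 Dex replicate 2 or 3, and to 14 with slide as a block. The replication calls fell to 4 without GR-C3 Dex replicate 2 or 3, to 8 without WT Dex replicate 3 or GR-C3 Dex replicate 1, and to 6 with slide as a block.

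Sterol genes were higher for 13 and lower for 1 of 21, with a median of 0.48 under Dex and 0.12 under vehicle. The sterol carrier Stard4 (1.09) and the synthase Hmgcs1 (0.71) were higher, and the cholesterol exporter Abca1 (-0.75) lower. The higher calls were 6 without GR-C3 Dex replicate 2 or 3 and 4 with slide as a block. No sterol gene had a called interaction.

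Of 33 interferon-stimulated genes listed, 28 passed the filter, 9 were lower and 3 higher, 42.9% called against 34.8% of all autosomal genes. The median was -0.31 under Dex and under vehicle, and Irf1, given above, was the highest member. Bst2, tetherin, lay at 2.76, 3.08 and 2.77 in WT and at 1.54, 1.59 and 1.44 in GR-C3 (-1.35 ± 0.13), and Ifit3 was lower by 1.17 ± 0.11. The lower calls were 5 without GR-C3 Dex replicate 3, and the higher calls 1 without GR-C3 Dex replicate 1 or 2. Genes of AP-1 and the immediate early response were higher for 13 and lower for 4 of 22, with a median of 0.44. The AP-1 members Fosl1 (1.33) and Jun (1.04) and the stress factor Atf3 (0.76) were higher. Fos lay at 0.18, -0.46 and -0.13 in WT and at -1.67, -1.88 and -1.94 in GR-C3 (-1.69 ± 0.18), with an interaction of -1.57 whose call was lost with slide as a block and without WT vehicle replicate 2 or 3, WT Dex replicate 3, any GR-C3 vehicle array, or GR-C3 Dex replicate 2 or 3. The higher calls were 8 without GR-C3 Dex replicate 1 or 3, and the lower calls 2 without GR-C3 Dex replicate 3.

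The share of genes called was near that of all autosomal genes (34.8%) for receptor partners and coregulators (36.4%) and for glycolysis and hypoxia genes (34.6%), so that these counts do not set the lists apart. Of 22 receptor partners and coregulators 4 were higher and 4 lower. Hsd11b1, which regenerates active glucocorticoid, was lower by 1.11 ± 0.14, and the steroid receptor coactivators Ncoa1 (-0.61) and Ncoa3 (0.63) split. Without WT Dex replicate 3 the higher calls were 2, and they were 1 without GR-C3 Dex replicate 3. Of 26 glycolysis and hypoxia genes 6 were higher and 3 lower, with Egln3 (1.57), an oxygen-sensing hydroxylase, and Hk2 (0.90), hexokinase 2, higher and Bnip3 (-1.16), a mitochondrial death and mitophagy factor, lower. The higher calls were 3 without GR-C3 Dex replicate 2 or 3, and the lower calls 5 without WT Dex replicate 3.

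Of 26 apoptosis regulators listed, 24 passed the filter and 6 were higher and 4 lower, 41.7% called against 34.8% of all autosomal genes. Bcl2, the founding survival member, was higher by 0.94 ± 0.15. Bcl2l2 was lower by 0.91 ± 0.12, but its other probe gave 0.17. The higher calls were 3 without GR-C3 Dex replicate 1, 2 or 3, and the lower calls 1 and 2 without GR-C3 Dex replicates 2 and 3. Of 18 heat shock and chaperone genes listed, 17 passed the filter and 3 were higher and 4 lower, 41.2% called. All called members differed by less than 2-fold, among them the mitochondrial chaperonins Hspd1 (0.59) and Hspe1 (0.67) and the small heat shock protein Hspb8 (-0.74).

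Much of the genotype difference under Dex was also called under vehicle, where 5405 of 20200 autosomal genes (26.8%) differed. The Dex and vehicle comparisons share no array, but no slide held vehicle arrays of both genotypes in this comparison either. WT vehicle replicates 2 and 3 lay on slide 2, and the GR-C3 vehicle arrays on slides 3 and 4. The part of the slide in this overlap was not tested. Of the 4190 genes higher under Dex, 2040 (48.7%) were higher under vehicle, which is 64.3% of the genes higher there. Of the 2558 lower genes 1515 (59.2%) were lower under vehicle, 70.1% of those lower there. Among differences of at least 2-fold the shares were 502 of 648 higher (77.5%) and 534 of 781 lower (68.4%). Opposite calls were found for 9 higher and 32 lower genes.

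Across 19403 genes, which are not independent replicates, the differences under Dex and vehicle correlated at Pearson's r = 0.739 and Spearman's rho = 0.645. Kcna5, a potassium channel, was higher in GR-C3 by 0.80 under Dex and by a fitted 3.44 under vehicle, where it was well above background on no WT array. Pdzrn4, an adaptor protein gene, lay at -3.11, -2.96 and -3.37 in WT Dex and at -4.78, -4.77 and -4.66 in GR-C3 Dex, a difference of -1.59 against -3.36 under vehicle. Besides the lists with this value above, slide as a block left fewer calls for AP-1 and immediate early genes (6 higher, 1 lower). Interferon-stimulated genes (1 higher, 6 lower), matrix genes (5 higher, 7 lower) and growth factor genes (7 higher, 7 lower) also had fewer. So did Wnt and BMP genes (9 higher, 9 lower), matrix proteases and inhibitors (6 higher) and imprinted genes (5 higher, 4 lower). Fewer calls were left for limb and trunk factors (6 higher), apoptosis regulators (3 higher, 2 lower) and glycolysis and hypoxia genes (2 higher). The same held for smooth muscle genes (3 higher), heat shock genes (1 higher, 2 lower) and receptor partners (2 higher, 3 lower). Among marker lists it held for epithelial (2 higher, 0 lower), fibroblast (2 lower), chondrocyte (7 lower), neural crest (5 higher, 0 lower) and skeletal muscle (5 higher). It held for mesothelial (1 lower), adipocyte (1 lower) and erythroid (0 higher) markers too, and neuron markers were 3 higher and 1 lower. The vehicle count was 4837 with all 12 arrays, 1509 with slide as a block, 2590 without WT vehicle replicate 2 and 2373 without WT vehicle replicate 3.

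**Figure D5:**
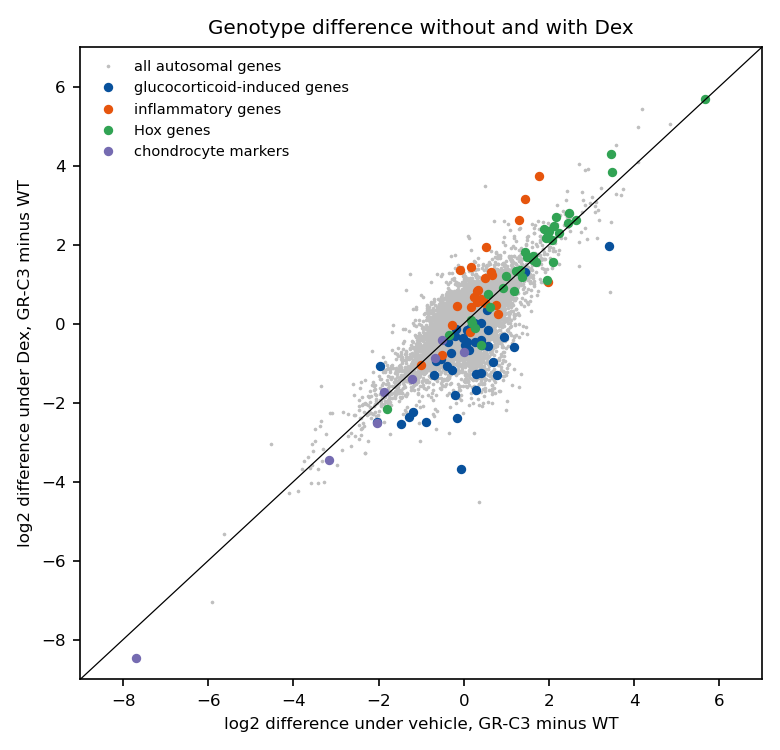
Log2 difference GR-C3 minus WT under vehicle (horizontal axis, 11 arrays) and under Dex (vertical axis), 1 point per autosomal gene, with 4 lists coloured and the line of equal differences drawn. Hox genes and chondrocyte markers lie near the line (medians 1.61 and 1.62, and -1.57 and -1.54, for Dex and vehicle), and glucocorticoid-induced genes lie mostly below it (medians -0.63 and 0.07); with normexp on unrepaired backgrounds the Hox median under Dex was -0.24.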

How the data were processed

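RNA of 12 samples was hybridised as Cy3 on one-colour Agilent arrays. The authors deposited 1 scanner file per array, with background-corrected processed signal intensity from Agilent Feature Extraction 9.5.3.1, per the file headers (9.5 per the submitters' processing notes), and a series value table equal to it within a relative 1e-09. Log2 intensities of the deposited files were scaled by the 75th percentile of 43379 non-control spots of each array. Spots of a probe were averaged, outlier flags left out, and 30050 of 41174 probes kept that were well above background on all arrays of a compared group. A gene is its probe of highest mean, for 6667 genes out of several. Probes were named from RefSeq by accession (23082), symbol (6582) or synonym (3073), or by the file's own name (8437). Probe positions are in mm7, per the file headers.

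The 6 Dex arrays were fitted with limma 3.58.1 (lmFit, eBayes; R 4.3.3), with Benjamini-Hochberg adjustment over 20303 genes and a threshold of 0.05. Counts cover the 19403 autosomal genes, and 52 genes lacked a value on at least 1 array. Vehicle differences, Dex changes and interactions come from 1 fit of 11 arrays, without WT vehicle replicate 1. The procedure was tested on simulated data. Exact permutation of 3 against 3 arrays cannot go below 0.1.

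Members and lists were chosen with earlier results of these data known. The genes named are Nr3c1, the 15 highest and 15 lowest called genes with no overlap, up to 6 genes each way with bounds only, up to 5 called members per list by p, and up to 6 genes each way called here and in the interaction; other list members were chosen after their values were seen, and a few members counted in the lists are not reported by name here. Alternatives were quantile normalization, normexp background correction (offset 50), the same with outlying local backgrounds replaced, other filters, the mean of probes, 11 or 12 arrays, slide as a fixed or random block, a replicate block, a variance trend and leaving out each array. Replicate numbers did not pair the samples: the correlation of deviations of same-numbered Dex arrays was 0.18, 0.042 and -0.0088.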

Additional observations from a re-analysis of the deposited data

Results flagged for a closer look

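The genes below had a genotype difference under Dex that departed from that under vehicle by limma's interaction test over 11 arrays; values are the log2 interaction. Among genes whose Dex rise was smaller in GR-C3 than in WT cells it was -3.64 for Slc45a3, -2.62 for Tcim, -2.43 for Ramp2, -2.23 for Rgcc, -1.65 for Fkbp5, -1.60 for Fam107a, -1.57 for Fos, -1.22 for Cebpa, -1.09 for Mertk and -0.78 for Bnip3. For genes whose Dex fall was smaller in GR-C3 it was 1.96 for Cxcl5, 1.72 for Has2, 1.43 for Ch25h, 1.35 for Fgf5, 1.26 for Ccl2 and 0.80 for Irf1. It was 1.77 for Pdzrn4, 1.73 for Rassf9 and 1.10 for Kdr. Values of -4.88 for Nat3, -2.64 for Kcna5, -2.50 for Klk1b16, of a family of near-identical copies, and 1.25 for ccdc198 are fitted to groups not well above background and are no bounds. When slide was a block, Ch25h, Fam107a, Kdr, Ramp2, Rgcc, Slc45a3 and Tcim kept their calls and the other 16 genes did not.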

How the results depend on the processing

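With normexp on unrepaired local backgrounds limma called 0 genes under Dex, and the fitted difference turned sign for Alpl (-0.58), Arg1 (-0.53), Atf3 (-0.038), B3galt5 (-0.017), Chrna1 (-0.23), Cldn6 (-1.04), Col3a1 (0.058), Cxcl1 (-0.28), Elavl4 (-0.40), Erbb3 (-0.013), Foxd3 (-0.50), Hba-a1 (-0.20), Hoxb8 (-0.75), Hoxd11 (-0.40), Kcna5 (-0.85), Krt8 (-0.56), Lef1 (-0.032), Mmp10 (-0.66), Mmp13 (-0.61), Mmp9 (-0.75), Myh3 (-0.48), Mylpf (-0.46), Myocd (-0.66), Myod1 (-0.26), Nefm (-0.86), Rassf9 (-0.85), Tbx4 (-0.36) and ccdc198 (-0.18). With repaired backgrounds 4283 genes were called, 2294 of them higher and 651 at least 2-fold, and no named gene turned sign. With slide as a fixed block 3167 genes were called, 1557 higher and 1610 lower, against 1509 under vehicle and 37 in the interaction; Cldn6 (-0.11) and Hba-a1 (-0.14) turned sign. The mean of a gene's probes turned Mxi1 (0.064) and the sterol gene Sc5d (-0.13), and all 12 arrays left 0 interaction calls (1214 at an unadjusted p under 0.05). Leaving out 1 array gave 3815 to 7826 calls under Dex, 2143 to 5383 higher, 1651 to 2645 lower and 1214 to 1536 at least 2-fold, 2373 to 6529 under vehicle and 57 to 1130 in the interaction. The replicate block gave 6039, 6309 and 268 calls, with the highest pair correlation between WT Dex replicate 2 and GR-C3 Dex replicate 3 (0.22). Apart from the values given, the causes of these changes were not tested. Probes not well above background have bounds only, and 3 arrays per group limit the precision.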
